A study of Mus musculus with 18 samples.

Results

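A set of 10 genes widely used to mark astrocytes was followed through the postnatal development of the mouse cochlear nucleus, the brainstem nucleus in which the auditory nerve ends. They are Gfap, S100b, Slc1a3, Slc1a2, Glul, Aldoc, Aqp4, Gja1, Apoe and Clu. The members were given as a list of 27 probe set identifiers of the oligonucleotide array, with the gene of each named in that list. Of these, 24 were among the 22690 probe sets of the deposited table and 3 (1 each of Gfap, Aqp4 and Slc1a3) were not and are not analysed here. All 24 had a mean signal above the level asked for testing, so that every member in the table entered the fit of 15296 probe sets. The members of a gene share its transcripts and are not independent of each other: Gja1 had 6 probe sets, Clu 4, Slc1a3 3, Gfap, Aqp4, Glul and Aldoc 2 each, and Slc1a2, S100b and Apoe 1 each. A gene with several is represented by its brightest, the probe set with the highest mean over all 8 arrays.

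The tissue came from C57BL/6J mice at postnatal day 7 (P7, 3 arrays), day 14 (P14, 2 arrays) and day 21 (P21, 3 arrays), with no treatment or genetic change named in the labels. RNA from the cochlear nuclei of 5 pups was pooled for each array, so the spread between arrays averages over pups. The labels do not say whether every pool came from other animals, and the p-values measure the spread between these arrays, which may be in part technical. The labels of 1 P21 array count fewer replicates than the others do, and all 3 were used. The signals are the submitters' scaled intensities, with a 2%-trimmed mean of 250.1 on every array and a median of 98.7 to 110.5. Precision is set by how few arrays there were. The median SD of log2 signal within an age was 0.239 over the 24 members and 0.179 over all probe sets tested.

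Astrocytes take up transmitter and potassium that neurons release, pass ions and metabolites to each other through gap junctions, line blood vessels with endfeet rich in water channels, and supply neurons with glutamine, lipids and metabolic fuel. In the rodent brain they are generated mainly around birth and mature over the first postnatal weeks, when their processes branch and their uptake systems are built up. In the cochlear nucleus this period holds the onset of hearing, after which glutamatergic auditory nerve terminals are driven by sound. None of the 10 genes is restricted to astrocytes in the whole brain. Oligodendrocytes can express S100b and Glul, microglia and choroid plexus can express Apoe, and Clu is also found in choroid plexus and in some neurons.

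Most of the astrocyte genes rose from P7 to P21, and as many had passed the test by P14. At P21 the signal was higher than at P7 in 7 of the 10 genes (Gfap, S100b, Slc1a2, Glul, Aldoc, Gja1 and Clu) and in 16 of the 24 probe sets, and it was lower in 2 probe sets, both of Slc1a3 (limma, adjusted p under 0.05). Over all probe sets tested, 38.6% passed, 17.1% upward and 21.5% downward. The arrays differ in which spiked poly-A control is high, and the controls are spread unevenly over the ages. With that control as a block, P21 rests on 1 array, and 7 probe sets rose, against 5.9% of all. By the brightest probe set 4 genes rose (S100b, Slc1a2, Glul and Aldoc), and 1 dimmer probe set of Clu rose as well. The part of this in the result was not tested. The median log2 change of the 24 members was 0.68, against -0.018 over all probe sets tested. From P7 to P14 the same numbers passed upward, 7 genes and 16 probe sets, and 1 probe set of Slc1a3 passed downward, against 29.6% of all probe sets tested, 12.9% upward and 16.7% downward (1967 and 2557 probe sets, or 2528 and 1849 with each array centred on its median). From P14 to P21 the probe sets of Glul passed upward, 2 of 24, and 0 passed downward, against 2.05% of all, 0.843% upward and 1.2% downward. At an unadjusted p under 0.05, this interval held the probe sets of Glul and Slc1a2 and 1 of Gja1 upward, and 1 of Aqp4 downward, which is near the share of all probe sets tested (19.4%).

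The arrays of the ages separated in the same way. All P21 arrays were above all P7 arrays in 15 of the 24 probe sets and below them in 2, where 22.1% and 27.4% of all probe sets tested did so. Both P14 arrays were above all P7 arrays in 19 and below in 2, against 24.3% and 34.6%. Between P14 and P21, all P21 arrays were above both P14 arrays in 7 and below in 2. Over all probe sets tested these shares were 21.3% and 16.8%, so a separation of P14 from P21 was common. With 2 arrays at P14 each of them carries weight. Without P14 replicate 2 the count of rises to P14 was 9 probe sets, against 7.07% of all probe sets tested. In that fit 4 genes rose by their brightest probe set, and the dimmer probe set of Glul rose as well. A larger number of astrocytes in the nucleus and more of these transcripts per astrocyte cannot be told apart in such tissue RNA. Probe sets of other cell types were not examined, since the tables at hand pair no other probe sets with genes.

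**Figure D1:**
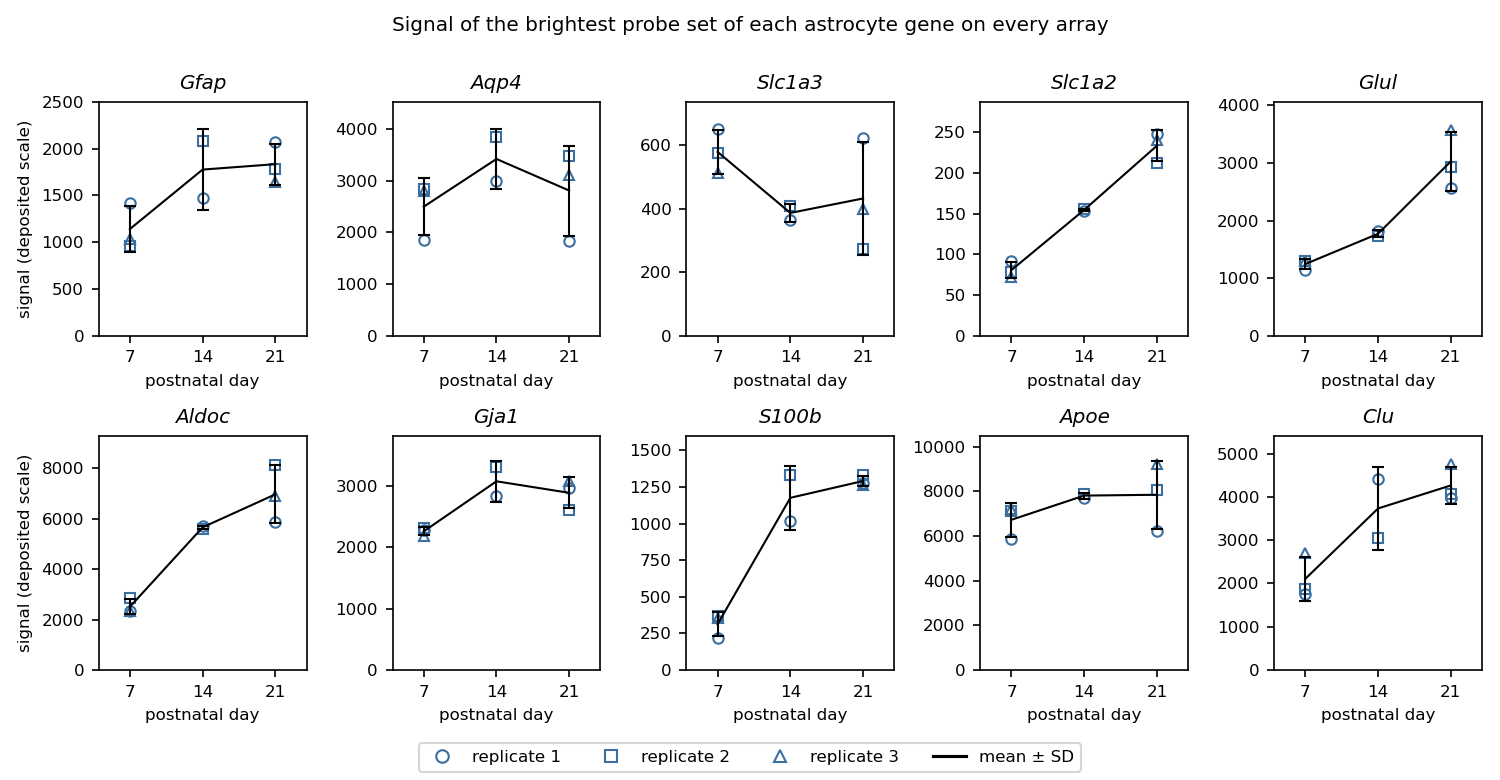
Signal on the deposited scale (vertical axis, starting at 0, a scale of its own for each gene) against postnatal day for the brightest probe set of each of the 10 genes. Each open symbol is 1 array (circle, square and triangle for replicates 1, 2 and 3) and the black line joins the means with their SD. S100b and Aldoc step up between P7 and P14, Glul and Slc1a2 climb through P21, Slc1a3 lies lower at P14 than at P7, and replicate 1 is the lowest array of Aqp4 and Apoe at both P7 and P21.

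S100b encodes a calcium-binding protein of mature astrocytes that is also secreted. Its probe set, 1419383_at, gave 219, 366 and 354 on the P7 arrays, 1021 and 1331 at P14, and 1275, 1329 and 1266 at P21. Every later array was far above every P7 array, and the P14 and P21 arrays overlapped. The log2 change from P7 to P21 was 2.03 (SE 0.18, limma adjusted p = 1.73e-05), a fold change of 4.10, which placed it above 99.4% of the probe sets tested. From P7 to P14 it was 1.89 (SE 0.20, limma adjusted p = 0.000142), and from P14 to P21 it was 0.15 (SE 0.20, limma adjusted p = 0.735). The log2 change by P14 was 0.929 of that by P21, and 0.836 to 1.02 with any 1 array left out. S100b was the 1 probe set of 24 that passed the test of a difference between intervals. Its first change minus the second was 1.74 (SE 0.35, limma adjusted p = 0.0195). Of all probe sets tested 8.01% passed, 3.93% with a positive and 4.08% with a negative difference (601 and 624 probe sets, or 864 and 440 with median centring). The 1 of 24 is near the share of all with a positive difference. The S100b difference was 2.12 without P14 replicate 1, 1.37 without P14 replicate 2 and 1.87 with the poly-A block. In each of these fits the call was lost.

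Gfap encodes the intermediate filament protein of astrocytes, abundant in fibrous astrocytes of tracts and at the surface of the brain. The brightest probe set, 1426508_at, gave 1423, 962 and 1037 at P7, 1470 and 2082 at P14, and 2073, 1785 and 1644 at P21. All later arrays exceeded all P7 arrays, though P7 replicate 1 lay close to P14 replicate 1. The log2 change to P21 was 0.69 (SE 0.17, limma adjusted p = 0.00866) and to P14 0.63 (SE 0.19, limma adjusted p = 0.0297). The rise to P14 leaned on P14 replicate 2, without which it was 0.38 (adjusted p = 0.267). It passed in 12 of the 20 alternatives run. The other losses were without P7 replicate 2 or 3, after quantile normalization, with no filter, with no trend, and with a block for the replicate number or for the poly-A control (adjusted p = 0.0504 to 0.0883). The change to P21 passed in 19 of 20 and was lost with the poly-A block (0.80, adjusted p = 0.135). The second probe set of Gfap gave 691, 487 and 566 at P7, 777 and 1602 at P14 and 1353, 1093 and 706 at P21. It passed less firmly, with log2 changes of 0.94 to P14 (limma adjusted p = 0.0446) and 0.80 to P21 (limma adjusted p = 0.0428). These calls held in 10 and 11 of 19 alternatives. Without P14 replicate 2 the change to P14 was 0.42 (adjusted p = 0.402), and the P14 arrays differed by more than any other pair of arrays of 1 age in this probe set.

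The promoters of genes that rose can be set beside that of Slc1a3, of which 2 probe sets fell. Promoter windows of the RefSeq table (build GRCm38.p6) were used for 8 of the 10 genes, with 11 start sites in all. For the members, entries on 1 chromosome were left out, while the counts over all windows kept them. No window was used for Aqp4 or Clu. Outside the chromosome left out, none of the windows carried either name, and that chromosome was not searched for them. The 250 bases before the start are shown, 5′ to 3′, for S100b, Glul, Slc1a2 and Gfap, which rose from P7 to P21, and for Slc1a3. Capitals mark TTGGC on either strand (GCCAA on the other), an arm of the palindrome that nuclear factor I proteins recognise, TTCNNNGAA, the form of element that STAT proteins recognise, and TATAAA on either strand.
S100b (chr10:76253586-76253835, + strand): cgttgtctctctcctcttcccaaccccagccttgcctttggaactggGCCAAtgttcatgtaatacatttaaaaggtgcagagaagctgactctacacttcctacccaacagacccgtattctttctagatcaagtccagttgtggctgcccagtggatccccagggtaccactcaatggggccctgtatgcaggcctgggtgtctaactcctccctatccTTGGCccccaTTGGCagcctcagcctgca
Glul (chr1:153899679-153899928, + strand): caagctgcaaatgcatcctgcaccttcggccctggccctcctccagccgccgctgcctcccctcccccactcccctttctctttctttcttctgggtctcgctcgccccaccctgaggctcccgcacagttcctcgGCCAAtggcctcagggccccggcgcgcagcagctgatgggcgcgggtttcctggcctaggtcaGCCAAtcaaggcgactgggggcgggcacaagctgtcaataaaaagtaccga
Slc1a2 (chr2:102706188-102706437, + strand): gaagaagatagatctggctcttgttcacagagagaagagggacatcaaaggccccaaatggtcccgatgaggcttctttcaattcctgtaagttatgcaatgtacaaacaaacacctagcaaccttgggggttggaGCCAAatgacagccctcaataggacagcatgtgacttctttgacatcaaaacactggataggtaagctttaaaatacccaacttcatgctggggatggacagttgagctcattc
Gfap (chr11:102897201-102897450, - strand): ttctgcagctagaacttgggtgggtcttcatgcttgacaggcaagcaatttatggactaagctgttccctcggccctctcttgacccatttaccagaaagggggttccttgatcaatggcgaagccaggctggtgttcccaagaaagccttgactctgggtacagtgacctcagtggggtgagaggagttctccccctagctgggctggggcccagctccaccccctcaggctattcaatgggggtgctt
Slc1a3 (chr15:8710808-8711057, - strand): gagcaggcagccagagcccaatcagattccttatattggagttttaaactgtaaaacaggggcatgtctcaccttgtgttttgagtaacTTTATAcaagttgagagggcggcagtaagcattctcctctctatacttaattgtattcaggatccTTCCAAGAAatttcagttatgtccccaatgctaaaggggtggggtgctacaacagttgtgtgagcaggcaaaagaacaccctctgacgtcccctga
The TTGGC letters occurred 3 times in the S100b window, 2 times in that of Glul and 1 time in that of Slc1a2, and in none of those of Gfap and Slc1a3. Among genes that rose and whose windows are not shown, of the 2 Aldoc windows 1 held TTGGC and the other held TTCNNNGAA 2 times, and the Gja1 window had no TTGGC. In S100b and Glul, 2 of these copies in each gene overlap the letters ATTGG or CCAAT of a CCAAT box. Of the 11 windows of member genes 6 held TTGGC, where 41.5% of all 32851 windows of the table did. The windows with TTGGC include Apoe start sites, at 57 and 49 bases before the start. Apoe did not pass at P14 or at P21, so these letters were not confined to genes that rose. The full palindrome of nuclear factor I, with a gap of any bases between its arms, was in 0 of the 11 and in 0.0365% of all windows. TTCNNNGAA was in 2 of the 11 (1 of the Aldoc start sites and Slc1a3) against 7.02% of all, and TATAAA in 2 of the 11 (1 of the Apoe start sites and Slc1a3) against 12.4%. These are matches of letters, and binding was not measured here.

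The genes of the glutamate-glutamine cycle moved in different directions. Slc1a3 and Slc1a2 encode the glial glutamate transporters GLAST and GLT-1, which clear glutamate from synapses, and Glul encodes glutamine synthetase, which turns that glutamate into glutamine for return to neurons. Slc1a2 (1451627_a_at), a dim probe set, gave 91.4, 78.3 and 72.3 at P7, 153 and 156 at P14, and 247, 212 and 240 at P21. The 3 ages did not overlap and each stood above the one before. The log2 change was 0.85 to P14 (SE 0.15, limma adjusted p = 0.00204) and 1.40 to P21 (SE 0.13, limma adjusted p = 2.72e-05), and that from P14 to P21 was 0.55 (SE 0.15, limma adjusted p = 0.0779). By P14 the log2 change was 0.604 of that by P21 (0.578 to 0.626 with 1 array left out).

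Glul rose in both intervals. Its brightest probe set, 1426236_a_at, gave 1139, 1306 and 1292 at P7, 1811 and 1730 at P14, and 2571, 2936 and 3572 at P21. The other, 1426235_a_at, gave 268, 371 and 336, then 634 and 665, then 1095, 1300 and 1791. In both probe sets no array of an age overlapped with another age. Of all probe sets tested, 21.3% had all P21 arrays above both P14 arrays. The log2 change to P21 was 1.26 (SE 0.12, limma adjusted p = 2.99e-05) in the brightest and 2.04 (SE 0.17, limma adjusted p = 1.56e-05) in the other. From P7 to P14 it was 0.51 (SE 0.13, limma adjusted p = 0.0178) and 0.98 (SE 0.19, limma adjusted p = 0.0042). The brightest lost this call without P14 replicate 1 (0.47) or P14 replicate 2 (0.54). From P14 to P21 alone the log2 change was 0.76 (SE 0.13, limma adjusted p = 0.0279) and 1.06 (SE 0.19, limma adjusted p = 0.0293). These changes stood above 98.6% and 99.7% of those of all probe sets tested. The share of the log2 change reached by P14 was 0.401 and 0.482, the lowest of the 7 genes that rose. The 2 probe sets therefore share the course and differ in size.

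The call between P14 and P21 was close to the threshold. It was lost in both probe sets of Glul with no filter on dim probe sets (adjusted p = 0.0517 and 0.0549) and with no trend in the variance model (0.0638 and 0.0625) at unchanged log2 changes. It was also lost without P14 replicate 1 (0.79 and 1.02, adjusted p = 0.122 and 0.15), P14 replicate 2 (0.72 and 1.09, 0.214 and 0.198), P21 replicate 2 (0.77 and 1.09, 0.0682 and 0.0709) or P21 replicate 3 (0.63 and 0.87, 0.0526 and 0.0528). Under the poly-A block the changes were 0.53 and 0.70 (adjusted p = 0.274 and 0.294).

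**Figure D2:**
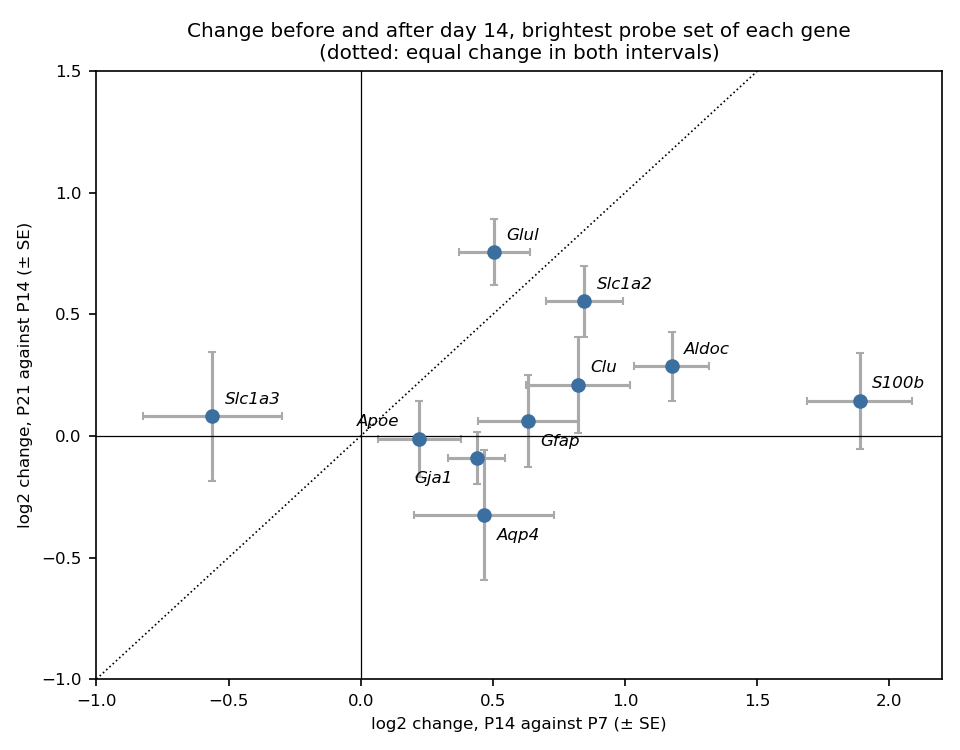
Log2 change from P14 to P21 (vertical) against log2 change from P7 to P14 (horizontal) for the brightest probe set of each of the 10 genes, with SE bars from the limma fit. Points on the dotted line changed equally in both intervals. S100b lies far to the right near 0 on the vertical axis (1.89 and 0.15), Glul lies above the dotted line (0.51 and 0.76), and Slc1a3 is the gene to the left of 0.

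Slc1a3 went the other way. At P7 its 3 probe sets gave 564, 542 and 478 (1426340_at), 395, 527 and 556 (1426341_at), and 650, 575 and 511 (1452031_at, the brightest). At P21 they gave 435, 337 and 382, then 226, 322 and 389, then 624, 272 and 400. In the former pair all P21 arrays were below all P7 arrays, while in the brightest P21 replicate 1 lay among the P7 arrays. The log2 changes to P21 were -0.45 (SE 0.12, limma adjusted p = 0.0158) and -0.65 (SE 0.19, limma adjusted p = 0.0192), and -0.48 (SE 0.24, limma adjusted p = 0.134) in the brightest, which did not pass. Without P21 replicate 1 the brightest gave -0.78 (adjusted p = 0.00605), and the mean of the 3 probe sets gave -0.53 (adjusted p = 0.0048). The first lost its call without P7 replicate 2 (adjusted p = 0.0523) or P21 replicate 2 (0.0577), and the next without P7 replicate 2 (0.0622), P7 replicate 3 (0.0695) or P21 replicate 1 (0.0516). Under the poly-A block, where P21 rests on 1 array, the first also lost its call (-0.26), the next kept it, and the brightest changed by 0.17. By P14 the changes were -0.42, -0.24 and -0.56, of which the first passed (limma adjusted p = 0.0444), but in only 8 of 19 alternatives. It did not pass without P7 replicate 1 or 2, P14 replicate 1 or 2, or P21 replicate 3. The call was also lost with no filter, median centring, no trend, a block for the replicate number or the poly-A control, and both P7 and P21 replicate 1 left out.

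The transporters can be compared within an array, where a common scale cancels. This ratio was chosen after the values had been seen. Relative to the P7 mean, the log2 ratio of Slc1a2 over Slc1a3 was -0.01, -0.03 and 0.04 on the P7 arrays, 1.47 and 1.34 at P14, and 1.37, 2.32 and 1.96 at P21. All P14 and P21 arrays lay well above the P7 arrays, and P14 and P21 overlapped. The mean at P21 was 1.88 above that at P7. It is given as a description with no test, and it does not say which transporter had the higher level. In the same way the log2 ratio of Glul over S100b was 0.33, -0.18 and -0.15 at P7, -1.16 and -1.61 at P14, and -0.98, -0.85 and -0.49 at P21. It was higher on each P21 array than on either P14 array, which is likewise a description.

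**Figure D3:**
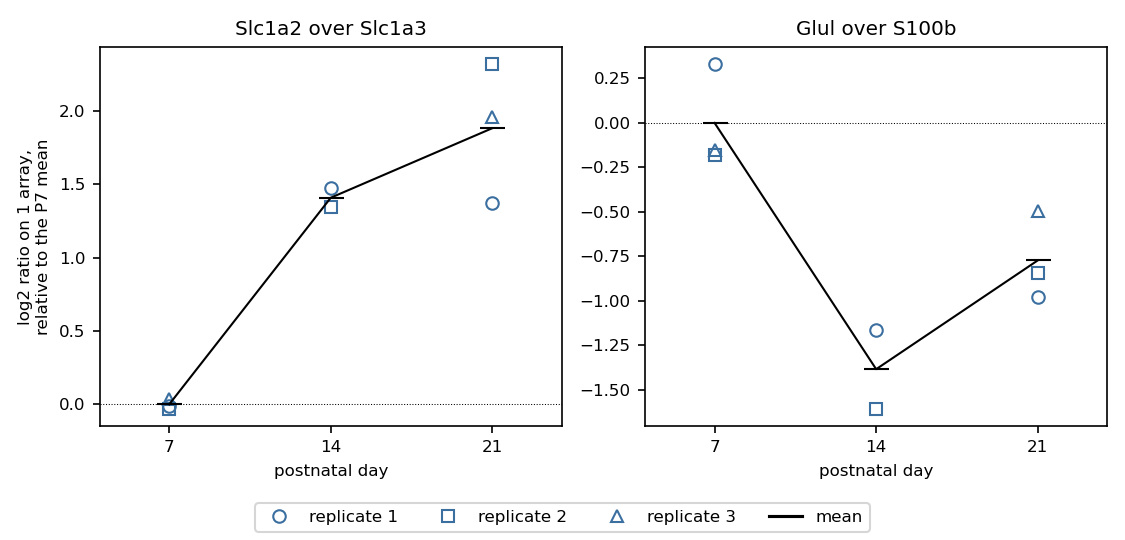
Log2 ratio of the brightest probe sets of Slc1a2 over Slc1a3 (left) and of Glul over S100b (right) on each array, relative to the P7 mean (dotted line), against postnatal day. Symbols are arrays by replicate number and the black line joins the means, which are 1.41 and 1.88 at P14 and P21 on the left and -1.38 and -0.77 on the right.

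Aldoc encodes aldolase C, the aldolase isoform of astrocytes and of subsets of cerebellar Purkinje cells. The brightest probe set, 1451461_a_at, gave 2325, 2852 and 2342 at P7, 5708 and 5609 at P14, and 5856, 8145 and 6898 at P21. The P7 arrays stood clearly below all others, and the lowest P21 array was just above the P14 pair. The log2 change was 1.18 to P14 (SE 0.14, limma adjusted p = 0.000291) and 1.46 to P21 (SE 0.13, limma adjusted p = 1.67e-05), with 0.29 (SE 0.14, limma adjusted p = 0.299) from P14 to P21. The dimmer probe set ran from 73.5 to 140 at P7, 251 to 303 at P14 and 244 to 373 at P21, with log2 changes of 1.41 and 1.54 from P7. By P14 the brightest had 0.804 of its log2 change to P21. The difference between intervals, 0.89 (SE 0.25, limma adjusted p = 0.0584), did not pass. It lay close to the threshold and passed in 3 of 19 alternatives. These were median centring (1.01, limma adjusted p = 0.0398), P21 replicate 2 left out (1.01, 0.0328) and the mean of its probe sets (1.08, 0.0452).

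Gja1 encodes connexin 43, which forms the gap junctions that couple astrocytes. Its 6 probe sets all had positive changes from P7 to P21, between 0.29 and 0.67, and 4 of them passed. The brightest, 1437992_x_at, gave 2279, 2308 and 2183 at P7, 2836 and 3306 at P14, and 2970, 2598 and 3082 at P21. Its P7 arrays were tightly grouped below all later arrays, while P14 and P21 overlapped. The log2 change was 0.44 to P14 (SE 0.11, limma adjusted p = 0.012) and 0.35 to P21 (SE 0.10, limma adjusted p = 0.0156). The probe set with the steadiest course gave 915, 1032 and 932 at P7, 1194 and 1223 at P14 and 1394, 1373 and 1425 at P21, and its ages did not overlap. The brightest lost its call to P21 without P7 replicate 3 (adjusted p = 0.059), without P21 replicate 3 (0.053) and with the poly-A block (0.16), and its call to P14 after quantile normalization (0.30, 0.0751) and without P14 replicate 2 (0.33, 0.131). In the steadiest probe set, 1415800_at, the log2 change to P21 was 0.54 (SE 0.08, limma adjusted p = 0.000626), lost with the poly-A block (0.55, adjusted p = 0.063). Of the other probe sets that passed, 1438945_x_at did so in 8 of 19 alternatives, and 1415801_at in 17 of 19, with 0.18 (adjusted p = 0.66) under the poly-A block. The 2 that did not pass had changes of 0.36 (limma adjusted p = 0.0766) and 0.29 (limma adjusted p = 0.309), and their P7 and P21 arrays overlapped. Of the 6 probe sets, 4 carry an identifier of the kind given to sets whose probes may also match other transcripts, and both of these belong to that kind.

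Aqp4 encodes aquaporin 4, the water channel of astrocyte endfeet. It showed no net change from P7 to P21 that passed the test. The brightest probe set, 1425382_a_at, gave 1859, 2834 and 2791 at P7, 3001 and 3832 at P14, and 1826, 3483 and 3110 at P21. The other, 1434449_at, gave 2379, 2397 and 2362, then 2799 and 3222, then 2215, 2680 and 2464. In both the P14 arrays stood above all P7 arrays, and the P21 arrays lay on both sides of the P7 range, with replicate 1 below it. The log2 change from P7 to P21 was 0.14 (SE 0.24, limma adjusted p = 0.672) and 0.04 (SE 0.10, limma adjusted p = 0.773), and the second was -0.04 after quantile normalization. The second probe set passed from P7 to P14 at 0.33 (SE 0.11, limma adjusted p = 0.0379), but not after quantile normalization (0.20, adjusted p = 0.175), nor with any 1 of the P7 or P14 arrays left out (0.23, adjusted p = 0.28, without P14 replicate 2). From P14 to P21 the changes were -0.32 (limma adjusted p = 0.54) and -0.29 (limma adjusted p = 0.168).

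Apoe encodes apolipoprotein E, the main lipid carrier that astrocytes secrete. It was high on every array, with 5842, 7113 and 7213 at P7, 7711 and 7898 at P14, and 6232, 8068 and 9225 at P21. The P21 arrays reached from within the P7 range to well above it. The log2 changes of 0.22 to P14 (SE 0.16, limma adjusted p = 0.321) and 0.21 to P21 (SE 0.14, limma adjusted p = 0.266) did not pass, and the first was -0.01 after quantile normalization. P7 replicate 1 and P21 replicate 1 had the lowest signal of their age in Apoe and in the brightest probe set of Aqp4. The median signal of the beta-actin control probe sets was also lowest there, at 6002 against 7249 and 7403 at P7 and at 5074 against 6975 and 7581 at P21. The part of this in the results was not tested. Without P21 replicate 1 the change of Apoe to P21 was 0.37 (adjusted p = 0.0235). With both of these arrays left out, which was chosen after the values had been seen, it was 0.27 (adjusted p = 0.0309), and the count of genes that rose to P21 was 8.

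Clu encodes clusterin, a secreted chaperone that also binds lipids. Its 4 probe sets gave the same course, though 3 of them, the brightest included, are of the kind whose probes may also match other transcripts. The brightest, 1454849_x_at, gave 1753, 1876 and 2692 at P7, 4406 and 3057 at P14, and 3965, 4065 and 4759 at P21. P7 replicate 3 was the highest of its age in all 4 and still lay below every later array. The log2 changes to P21 ran from 0.94 to 1.26 over the 4, all of which passed, and those to P14 ran from 0.77 to 1.04, all of which passed as well. In the brightest they were 0.82 to P14 (SE 0.20, limma adjusted p = 0.0109) and 1.03 to P21 (SE 0.18, limma adjusted p = 0.00111). With the poly-A block 3 of the 4 lost the call to P21 (adjusted p = 0.0738, 0.0877 and 0.13). Without P14 replicate 1 the brightest lost its call to P14 (0.56, adjusted p = 0.124). From P14 to P21 none of the 4 passed.

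**Figure D4:**
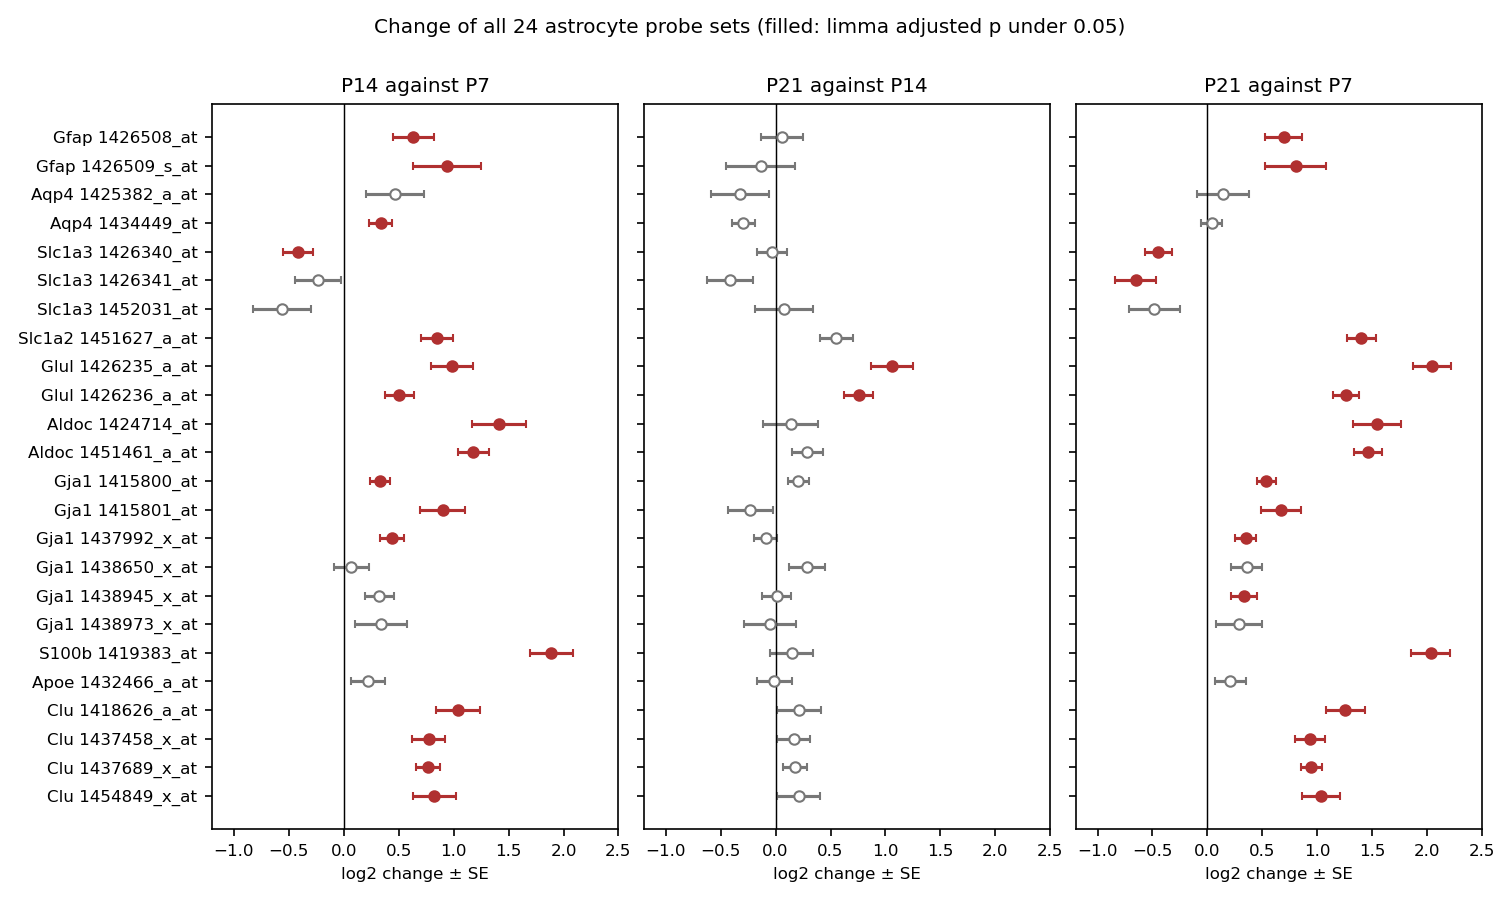
Log2 change with its SE for all 24 probe sets of the 10 genes from P7 to P14 (left), P14 to P21 (middle) and P7 to P21 (right). Filled red points passed the limma test at an adjusted p under 0.05 and open grey points did not. The left and right panels look alike, with 17 and 18 filled points, and in the middle panel the 2 filled points are those of Glul.

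Set in order of the log2 change of the brightest probe set from P7 to P21, the genes ran from S100b (2.03) through Aldoc (1.46), Slc1a2 (1.40), Glul (1.26), Clu (1.03), Gfap (0.69), Gja1 (0.35), Apoe (0.21) and Aqp4 (0.14) to Slc1a3 (-0.48). Neighbours from Aldoc to Clu lay within about the sum of their SEs (0.13, 0.13, 0.12 and 0.18) of each other. The dimmer probe set of Glul, at 2.04, would stand beside S100b, so that the place of Glul depends on the probe set. On arrays a fold change is compressed to a degree that differs between probe sets, and this order describes these probe sets.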

How the data were processed

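RNA of mouse cochlear nucleus at P7, P14 and P21 was measured on 8 oligonucleotide arrays. The deposited values are scaled signal intensities, 1 per probe set, made with GCOS according to the submitters' processing notes, where its version is not stated. The 10 samples of the spotted cDNA arrays were not used here. The members and lists were chosen with earlier results of these data known. Gene names of members come from the list that defines them. No other probe set was named (0 of 22690 identifiers matched the gene table), so 8 lists of further astrocyte genes and 9 lists of cell type markers were not run.

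Signals were brought to a common 2%-trimmed mean of 250.1. The 64 control probe sets were left out, as were probe sets with a mean under 50.0, which left 15296. On log2(signal + 12.5), the 8 arrays were fitted together with limma 3.58.1 in R 4.3.3 (lmFit, then eBayes with its trend option). Fold changes are on that scale and understate changes of dim probe sets. Each pair of ages was contrasted, and the change before P14 was set against the change after it, two-sided, with Benjamini-Hochberg adjustment over all probe sets tested and a threshold of 0.05. All members are named, and a gene is represented by its brightest probe set. The fit was tested on simulated data. Alternatives were other pseudocounts, filters and normalizations, no trend, only the ages compared, blocks, the mean of a gene's probe sets and each array left out.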

Additional observations from a re-analysis of the deposited data

Results flagged for a closer look

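The change of S100b from P7 to P14 differed from its change from P14 to P21 by 1.74 on the log2 scale, by the test of that difference (limma adjusted p = 0.0195). Of the 24 probe sets 1 passed with a positive difference, which is near the 3.93% of all probe sets tested. The groups of 2 or 3 arrays are too small for a test of single arrays that stand apart.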

How the results depend on the processing

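The settings tried were 2 other pseudocounts, no filter and a stricter filter, quantile normalization, median centring, no trend, only the ages compared, the replicate number as a block, the poly-A control as a block, the mean of a gene's probe sets and each of the 8 arrays left out. A setting that leaves out P7 replicate 1 and P21 replicate 1 together was chosen after seeing the data. S100b, Slc1a2, Aldoc and Glul kept their call from P7 to P21 in all of these.

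Under the poly-A block, from P7 to P21, 7 probe sets rose and 1 fell, and 4 genes rose by their brightest probe set. In it 0 probe sets and 0 genes rose from P14 to P21 or differed between intervals. From P7 to P14, 1 gene fell. The log2 changes of the 2 Aqp4 probe sets to P21 were -0.63 and -0.15, that of Apoe -0.17, that of the brightest of Slc1a3 0.17, that of S100b from P14 to P21 -0.0405, and the difference between intervals of the dimmer Glul probe set 0.27. Within the arrays high in lys (1 per age), 7 of 10 genes had the sign of the full fit from P7 to P21, the others being Aqp4, Apoe and Slc1a3, and 10 of 10 from P7 to P14.

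Whether the replicate numbers pair the samples was not settled. Deviations from the age means correlated across probe sets at -0.0442 to 0.281 for same-numbered arrays and at -0.271 to 0.215 for other pairs. The deviations within an age sum to 0, so with so few arrays they cannot decide this. With the replicate block 0 probe sets fell from P7 to P14, and 3 probe sets, or 2 genes by their brightest, differed between intervals. In that fit 1 Gja1 probe set changed by -0.0421 to P14 and the Glul difference between intervals was 0.15.

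From P7 to P14 the count of probe sets that fell was 0 with no filter, with median centring and with no trend, and 2 (1 gene) with only the ages compared. From P14 to P21 the 2 probe sets and 1 gene of Glul became 0 with no filter and 0 with no trend. With median centring 3 probe sets, and 2 genes by their brightest probe set, differed between intervals, and the Glul difference was 0.0428. The mean of a gene's probe sets gave 1 gene that fell to P21, 1 that fell to P14, and 2 that differed between intervals. Without P7 replicate 1 and P21 replicate 1 together, 1 gene fell to P21. After quantile normalization 1 Aqp4 probe set changed by -0.0371 to P21 and Apoe by -0.0094 to P14. The cause of these shifts was not tested.

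With each array left out in turn, the counts from P7 to P21 ran from 13 to 17 probe sets and 6 to 8 genes that rose, and from 0 to 2 probe sets and 0 to 1 genes that fell. From P7 to P14 they ran from 9 to 16 and 4 to 7 that rose and from 0 to 2 and 0 to 1 that fell. From P14 to P21 they ran from 0 to 2 probe sets and 0 to 1 genes, and between intervals from 0 to 2 and 0 to 2. The log2 changes ran from -0.0561 to 0.42 and -0.0264 to 0.11 for Aqp4 to P21, from -0.0074 to 0.17 and -0.0141 to 0.69 for 2 Gja1 probe sets to P14, from -0.04 to 0.33 for S100b from P14 to P21, and from -0.23 to 0.12 for the Glul difference between intervals (-0.3619 without both replicate 1 arrays). Over all probe sets tested, 313 passed from P14 to P21, but 109 of all with no filter, 121 with no trend, 198 with only those ages 0 with the poly-A block (2070 at an unadjusted limma p under 0.05) and 0 to 463 with 1 array left out. The 5907 from P7 to P21 became 1938 with that block, and the 1225 between intervals became 68 with it, 793 with no trend, 95 without P14 replicate 1 and 53 without P14 replicate 2. The 4524 from P7 to P14 became 2434 and 2378 without these arrays. For arrays no depth applies, and signal over background was not given in the sources used here.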
